A study of Mus musculus with 23 samples.

Results

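The Klf genes encode Krüppel-like factors, transcription factors that bind DNA through zinc fingers. Here 10 of their transcripts (Klf2, Klf3, Klf4, Klf5, Klf6, Klf7, Klf9, Klf10, Klf13 and Klf16) were followed in F9 cells given retinoic acid. Most of the pluripotency transcripts listed below were lower after 48 h. The 10 were taken by gene symbol from the 36814 genes of the count tables, and all 10 were among the 16155 genes with enough counts to be tested. F9 is an established mouse embryonal carcinoma line, a tumour-derived relative of pluripotent embryonic cells, and it forms endoderm-like cells when given all-trans retinoic acid (RA). The study's 14 mRNA libraries held 4 from cells at 0 h, 2 each from cells given 1e-07 M RA for 6, 12, 24 and 48 h, and 1 each from cells given the solvent, 0.001% DMSO, for 24 and 48 h. No genetic change was named in the labels for any group, and nothing states that replicates came from separate cultures, so the p-values speak only to how far these libraries differ, a spread that can be technical. The 9 chromatin samples of the study were not analysed here.

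Krüppel-like factors recognise GC-rich boxes and CACCC boxes, which they share with the related Sp factors. The tails outside the zinc fingers differ and set what each factor does. Klf2, Klf4 and Klf5 are activators that support self-renewal of mouse embryonic stem cells and overlap in their targets. Klf6 and Klf7 are broadly expressed activators linked to growth and differentiation. Klf3 represses through the corepressor CtBP, and Klf9, Klf10, Klf13 and Klf16 carry a motif that recruits the Sin3A corepressor complex. Klf10 is also known as a gene induced early by TGF-beta.

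Levels are in CPM, a gene's counts per 1000000 gene counts of its library. The libraries held between 7078941 and 10948932 gene counts, and the members' counts per library lay between 88 for Klf4 and 4896 for Klf5. The libraries formed 2 sets by their counts of reads in no annotated gene, taken as a share of these counts plus the gene counts. The share was 57.3% to 59.43% in set 1, made up of both DMSO libraries and, for 0 h and the RA times, the replicate numbered 1. It was 52.51% to 53.77% in set 2, the other 7 libraries. Of the tested genes, 42.1% differed between the sets. Klf5 was lower in set 2 than in set 1 by a log2 difference of -1.20, Klf4 by -0.78 and Klf16 by -0.65, while Klf6 was higher by 0.55 and Klf10 by 0.29 (edgeR, adjusted p = 5.89e-06, 0.00315, 0.000722, 0.000241 and 0.0231). Tests are therefore given without a covariate and, where that changes a call, with a term for the library set or with the replicate number as a block. The block used numbers 1 and 2 of 0 h and the RA times, which lie in set 1 and set 2, so replicate number and set cannot be told apart there. The 2 libraries of 24 h RA were the least alike of any replicate pair, with a chi-square per degree of freedom of 61.95 against 10.07 to 38.06 for the others.

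Most listed pluripotency transcripts were lower by 48 h, and a few were higher at some time. Pou5f1, which encodes the pluripotency factor Oct4, stood at 2260, 1780, 2180 and 2030 CPM at 0 h and at 973 and 430 CPM after 48 h of RA, a log2 fold change of -1.71 ± 0.36 (SE; edgeR quasi-likelihood test with Benjamini-Hochberg adjustment, adjusted p = 0.00569). All of the 48 h libraries lay below all 0 h libraries. Nanog, Sox2, Esrrb and Zfp42 also fell at 48 h, with log2 fold changes of -1.29, -1.44, -0.69 and -1.29 (edgeR, adjusted p = 0.00535, 0.00311, 0.00854 and 0.0111). Nanog had been at 0.59 at 6 h and 0.54 at 12 h (edgeR, adjusted p = 0.443 and 0.348), which the set term called higher at 0.66 and 0.60 (edgeR, adjusted p = 0.0443 and 0.0404), and it was at -0.12 at 24 h. Pou5f1 and Zfp42 were called lower at 24 h with the set term alone, at -0.94 and -0.97 (edgeR, adjusted p = 0.0016 and 0.000744). Tdgf1, a Nodal co-receptor, had the largest decrease of the 6 pluripotency genes named here, -3.95 ± 0.41 (edgeR, adjusted p = 0.000114). Of 24 listed pluripotency genes, 0 were called lower at 6 h, 3 at 12 h, 9 at 24 h and 18 at 48 h, beside 0.192%, 0.594%, 4.26% and 12% of all tested genes. Dppa2 was called higher at 6 and 12 h, and Tbx3 and Lefty1 at 24 and 48 h, which gave 1, 1, 2 and 2 genes higher beside 1.47%, 2.15%, 8.08% and 17.5% of all genes; with the set term these numbered 3, 4, 2 and 2. The counts of genes called lower with the library set term were 2, 6, 14 and 20, and those with the replicate block 4, 8, 15 and 20. Those fits also called more of all genes at 12, 24 and 48 h. In either direction the set term called 12.7%, 29% and 48.8%, with 25.8% higher and 22.9% lower at 48 h. The block called 9.67%, 28.3% and 46.2%, and the fit without a covariate 2.75%, 12.3% and 29.5%. For the set term before 48 h and for the block, shares by direction are not given here. Whether those list counts exceeded the share of all genes is therefore not shown. The leave-out, DESeq2 and unadjusted counts that follow also have no share of all genes beside them. Without number 2 of 48 h RA the count at 48 h was 8, without number 1 of 24 h RA that at 24 h was 4, without either 12 h library that at 12 h was 1, and without number 1 of 0 h that at 6 h was 1. At 6 h DESeq2 called 2 of them lower, and 4 were lower at an unadjusted p under 0.05. Their median log2 fold change was -0.13, -0.38, -0.82 and -1.24 at the successive times, beside a median within 0.01 of 0 over all genes tested at each time. The endoderm genes Gata6 and Col4a1 rose by log2 fold changes of 6.14 ± 0.66 and 4.95 ± 0.42 at 48 h (edgeR, adjusted p = 0.000147 and 4e-05). In bulk RNA, more cells of a type and more RNA per cell cannot be told apart, and the same holds for a decrease.

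At 48 h of RA, 5 of the 10 Klf genes were called different from 0 h. Klf4 and Klf7 were higher, and Klf2, Klf10 and Klf16 were lower. Leaving out any 1 library of 0 h or of 48 h RA left 3 of the 10 called. Across all tested genes the fit on all 14 libraries called 29.5% in this comparison, 17.5% higher and 12% lower. No share of all genes was counted for the fits with a library left out. The fit with the library set term also called Klf6 higher, which gave 6 of 10 members against 48.8% of all genes, 25.8% higher and 22.9% lower. The replicate block called Klf6 higher and Klf5 lower as well, which gave 7 of 10 against 46.2%. In 3 of 10 members (Klf4, Klf6, Klf7) both 48 h libraries lay above all 0 h libraries and in 3 (Klf2, Klf10, Klf16) below them, against 32.2% and 16.7% of all tested genes. The members' median log2 fold change was -0.10 and that of all tested genes 0.01. Every RA time was compared with the same 4 libraries of 0 h.

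**Figure D1:**
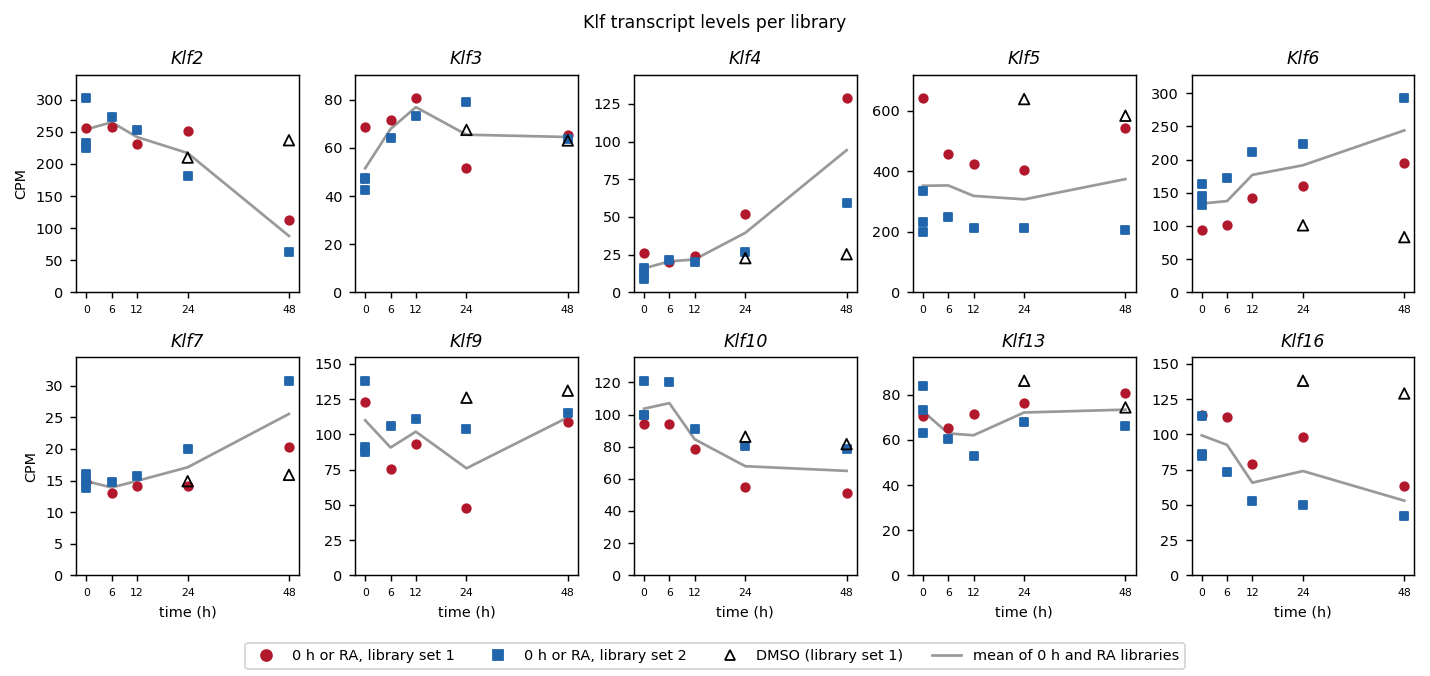
CPM (vertical axis, from 0, its own scale in each panel) against hours in culture (horizontal axis) for the 10 Klf genes, 1 symbol per library. Red circles are 0 h and RA libraries of set 1, blue squares those of set 2, open triangles the DMSO libraries, and the grey line joins the means of the 0 h and RA libraries. Klf4 reaches 129 and 59.6 CPM at 48 h against 8.9 to 26.0 at 0 h, Klf2 drops to 113 and 62.8 CPM, and in the Klf5 panel the circles lie above the squares at every time.

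Of the activators tied to self-renewal, Klf4 is one of the reprogramming factors that can return somatic cells to pluripotency. Its transcript stood at 26.0, 16.4, 8.9 and 12.5 CPM at 0 h. It was at 19.9 and 21.2 CPM after 6 h of RA, at 23.8 and 19.9 CPM after 12 h, at 52.0 and 27.0 CPM after 24 h and at 129 and 59.6 CPM after 48 h. The 48 h libraries lay above all libraries of the other groups, and the 24 h libraries above all 4 of 0 h, although 27.0 and 26.0 CPM were close. The group means were 16.0 ± 7.36 CPM at 0 h (SD, n = 4) and 94.1 ± 48.7 CPM at 48 h (SD, n = 2). Klf4 rose by a log2 fold change of 2.41 ± 0.43 at 48 h (SE; edgeR, adjusted p = 0.00237), a 5.31-fold increase. The value was smaller with the library set term, 2.19 (edgeR, adjusted p = 9.75e-06), and with the replicate block, 1.96 (edgeR, adjusted p = 4.27e-05). The difference at 48 h on the log2(CPM + 1) scale was 2.26 within set 1 and 2.19 within set 2, each from 1 RA library. At 48 h the 2 library sets thus gave nearly the same change from different starting levels. At 6 h the differences were -0.367 in set 1 and 0.743 in set 2, and at 12 h -0.125 and 0.653, so the signs differed.

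Klf2, known for its part in endothelial cells and naive stem cells, moved the opposite way. Its levels at 0 h were 256, 232, 303 and 225 CPM. They were 257 and 273 CPM at 6 h of RA, 231 and 253 CPM at 12 h, 252 and 182 CPM at 24 h, and 113 and 62.8 CPM at 48 h. Until 24 h the RA libraries overlapped those of 0 h or lay in their range, except for the set 2 library of 24 h at 182 CPM, and at 48 h both lay below all others. Klf2 fell by 1.69 on the log2 scale at 48 h (SE 0.27; edgeR, adjusted p = 0.0013), a 3.22-fold decrease. Within set 1 the difference in log2(CPM + 1) was -1.18 and within set 2 it was -1.98. The changes of Klf4 and Klf2 at 48 h held their calls when any library of 0 h or of 48 h RA was left out.

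Klf5, which supports proliferation in stem cells and gut epithelium, varied widely within groups. Its 0 h libraries read 643, 335, 234 and 198 CPM. After 48 h of RA the levels were 543 and 206 CPM, and the DMSO libraries read 639 CPM at 24 h and 584 CPM at 48 h. All 7 libraries of set 1 lay between 403 and 643 CPM and all 7 of set 2 between 198 and 335 CPM. The sets therefore did not overlap. Within set 1 the 0 h and DMSO libraries (643, 639 and 584 CPM) lay above the RA libraries (458, 424, 403 and 543 CPM). Within set 2 the 0 h libraries (335, 234 and 198 CPM) overlapped the RA libraries (249, 214, 212 and 206 CPM). The log2 fold change at 48 h was -0.08 ± 0.58 (SE; edgeR, adjusted p = 0.94). With the replicate block Klf5 was called lower at 12, 24 and 48 h, by log2 fold changes of -0.65, -0.79 and -0.61 (edgeR, adjusted p = 0.00624, 0.000823 and 0.00209); this fit sets 643 CPM and 335 CPM against the RA libraries and leaves out numbers 3 and 4 of 0 h. The set term gave a call at 24 h alone, lower, at -0.55 (edgeR, adjusted p = 0.0334), and at 48 h the value was -0.39 (edgeR, adjusted p = 0.0843).

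**Figure D2:**
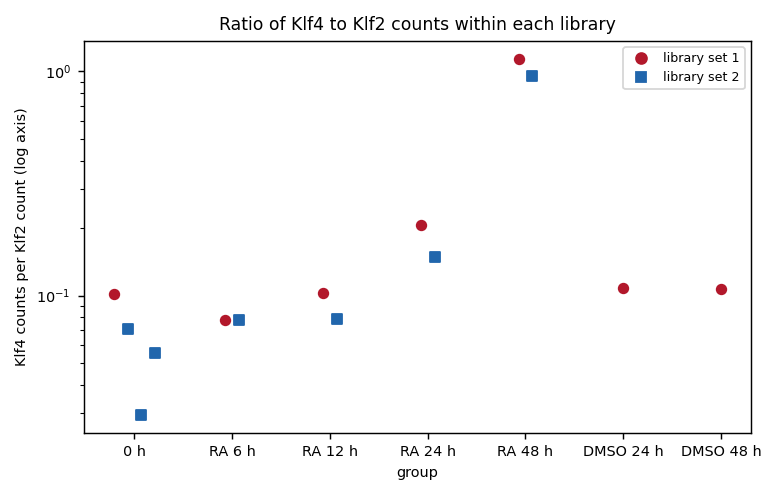
Klf4 counts divided by Klf2 counts within each library (log axis) for the 7 groups, red circles for library set 1 and blue squares for set 2. The 0 h, 6 h, 12 h and DMSO libraries lie between 0.0294 and 0.108, and the 48 h RA libraries at 1.14 and 0.949.

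Klf4 and Klf2 can be set against each other inside each library, where depth and scaling cancel but gene differences between the library sets do not. The log2 difference of set 2 from set 1 was -0.775 for Klf4 and -0.265 for Klf2, and both DMSO libraries were of set 1. Klf4 counts per Klf2 count were 0.102, 0.0708, 0.0294 and 0.0556 at 0 h. They were 0.207 and 0.148 at 24 h of RA and 1.14 and 0.949 at 48 h, against 0.108 and 0.107 in the DMSO libraries of 24 and 48 h. Both 48 h RA libraries lay above every other library, and so did both 24 h RA libraries when 48 h is left aside. In set 1 Klf2 read 256 CPM at 0 h and 252 CPM at 24 h of RA, so the higher ratio there came with Klf4. The ratio also depends on the lengths of the transcripts, so only its course over libraries is described, and it was chosen after the values of both genes were seen.

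The RefSeq promoter table (build GRCm38.p6) matched 7 of the 10 members, and 3 of those whose level changed at 48 h are printed because they went up (Klf4, Klf7) and down (Klf2). Each sequence is the 250 bases before the annotated start, 5′ to 3′ on the gene's strand. Capitals mark matches, on either strand, to the GC box GGGCGG or the CACCC box CCACCC, the kinds of site that Krüppel-like and Sp factors bind.
Klf4 (chr4:55532476-55532725, minus strand): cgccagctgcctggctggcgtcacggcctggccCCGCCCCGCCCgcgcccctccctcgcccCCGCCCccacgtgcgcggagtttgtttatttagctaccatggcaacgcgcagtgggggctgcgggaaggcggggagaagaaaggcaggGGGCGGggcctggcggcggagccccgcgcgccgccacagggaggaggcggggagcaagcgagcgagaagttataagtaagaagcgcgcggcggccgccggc
Klf7 (chr1:64121390-64121639, minus strand): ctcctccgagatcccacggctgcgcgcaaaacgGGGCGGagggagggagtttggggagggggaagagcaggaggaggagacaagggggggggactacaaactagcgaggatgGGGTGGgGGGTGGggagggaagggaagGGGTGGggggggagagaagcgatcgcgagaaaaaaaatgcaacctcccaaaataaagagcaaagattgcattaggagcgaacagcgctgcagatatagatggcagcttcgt
Klf2 (chr8:72318812-72319061, plus strand): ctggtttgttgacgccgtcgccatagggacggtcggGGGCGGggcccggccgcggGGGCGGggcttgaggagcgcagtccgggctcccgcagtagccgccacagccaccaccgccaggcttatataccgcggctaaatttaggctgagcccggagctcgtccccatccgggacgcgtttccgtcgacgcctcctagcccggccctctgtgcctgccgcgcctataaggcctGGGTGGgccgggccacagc
Klf4 held 4 GC boxes, overlapping matches counted singly, and 0 CACCC boxes. Klf7 held 1 GC box and 3 CACCC boxes, and Klf2 held 2 GC boxes and 1 CACCC box. The GC box was found in 6 of the 7 member promoters and in 32.7% of 32851 promoters of this length, and the CACCC box in 4 of 7 and in 28.1%. The GC content was 74.0% for Klf4, 71.2% for Klf2 and 59.2% for Klf7, with a median of 52.4% over all promoters. Retinoid receptors can bind direct repeats of the hexamer AGGTCA, and the close forms with GGGTCA and with AGTTCA were allowed too. With spacings of 1, 2 and 5 bases, 0 of 7 members held such a repeat on either strand, beside 0.143%, 0.0852% and 0.0639% of all promoters. A match or its absence describes the letters of this window only. The rising and the falling genes printed here both carried GC boxes.

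Klf7, an activator studied mostly in neurons and fat cells, had low and even levels before it rose. The 0 h libraries read 14.8, 16.0, 15.0 and 13.8 CPM, and the 6 and 12 h libraries lay between 13.1 and 15.8 CPM. The levels were 14.2 and 20.0 CPM at 24 h and 20.3 and 30.8 CPM at 48 h. Both 48 h libraries were above every other library of the study. The log2 fold change at 48 h was 0.62 ± 0.21 (SE; edgeR, adjusted p = 0.0487), a 1.54-fold increase close to the threshold of 0.05. The call was lost when any 0 h library was left out (edgeR, adjusted p from 0.0674 to 0.105) and when number 2 of 48 h was left out, where the log2 fold change was 0.37 (edgeR, adjusted p = 0.33). The set term gave 0.66 (edgeR, adjusted p = 0.00895).

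Klf6, described as a growth-restraining activator in many tissues, read 94.2, 145, 164 and 132 CPM at 0 h. It read 102 and 173 CPM at 6 h, 142 and 212 CPM at 12 h, 160 and 223 CPM at 24 h, and 195 and 293 CPM at 48 h. In each pair the set 2 library was the higher, and the levels within each set were higher at each later RA time. Both 48 h libraries lay above all 0 h libraries. Without a covariate the log2 fold change at 48 h was 0.71 ± 0.27 (SE; edgeR, adjusted p = 0.0703), which did not pass. Once the library set was in the fit it was 0.84 (SE 0.12; edgeR, adjusted p = 7.45e-05), and with the replicate block 0.89 (edgeR, adjusted p = 8.22e-05). Within set 1 the difference in log2(CPM + 1) was 1.04 and within set 2 it was 0.99.

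Klf3, the CtBP-binding repressor, read 68.8, 47.6, 42.7 and 47.2 CPM at 0 h and 65.5 and 63.6 CPM at 48 h. The number 1 library of 0 h lay within the range of the RA libraries and the other 3 lay below all of them. At 12 h it read 80.8 and 73.1 CPM, above all 0 h libraries, with a log2 fold change of 0.56 ± 0.23 (SE; edgeR, adjusted p = 0.272). At 48 h the value was 0.17 ± 0.23 (SE; edgeR, adjusted p = 0.63).

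Among the Sin3A-binding repressors, Klf10 fell at 24 and 48 h. It read 93.9, 121, 99.8 and 99.9 CPM at 0 h, 94.2 and 120 CPM at 6 h, and 78.3 and 90.9 CPM at 12 h. It then read 55.2 and 80.5 CPM at 24 h and 51.4 and 78.5 CPM at 48 h. From 12 h on, every RA library lay below all 0 h libraries. Klf10 fell by 0.73 on the log2 scale at 24 h (SE 0.20; edgeR, adjusted p = 0.0423) and by 0.82 at 48 h (SE 0.20; edgeR, adjusted p = 0.0124), a 1.65-fold and a 1.77-fold decrease. The DMSO libraries, at 86.2 and 81.6 CPM, were also below the lowest 0 h library. The 24 h call was lost without any 0 h library (edgeR, adjusted p from 0.0543 to 0.0805) and without number 1 of 24 h RA, where the value was -0.52 (edgeR, adjusted p = 0.264). The 48 h call was lost without number 1 of 48 h RA (-0.63; edgeR, adjusted p = 0.0962).

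Klf16 read 114, 85.7, 113 and 84.4 CPM at 0 h. It was at 112 and 73.0 CPM at 6 h, 79.0 and 52.4 CPM at 12 h, 98.1 and 49.8 CPM at 24 h, and 63.6 and 42.3 CPM at 48 h. The DMSO libraries, at 138 and 129 CPM, were higher than all others, and both 48 h RA libraries lay below all 0 h libraries. Klf16 fell by 1.06 on the log2 scale at 48 h (SE 0.36; edgeR, adjusted p = 0.0471), a 2.09-fold decrease. That call was lost when any library of 0 h was left out (edgeR, adjusted p from 0.058 to 0.0978) or number 1 or 2 of 48 h RA (edgeR, adjusted p = 0.0646 and 0.319). The 48 h value with the set term was -1.26 (edgeR, adjusted p = 8.02e-05).

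Klf9, a target of thyroid and glucocorticoid hormones in other tissues, read 123, 138, 87.8 and 91.0 CPM at 0 h and 109 and 115 CPM at 48 h. The number 1 library of 24 h RA stood alone at 47.8 CPM, and its partner read 104 CPM. The log2 fold change was -0.66 ± 0.29 at 24 h and -0.13 ± 0.28 at 48 h (SE; edgeR, adjusted p = 0.167 and 0.768). With the replicate block the 24 h value was called, at -0.96 (edgeR, adjusted p = 0.00517). Klf13, a repressor and activator known from lymphocytes, read 70.8, 73.4, 83.7 and 63.0 CPM at 0 h and 80.6 and 66.2 CPM at 48 h. All 14 Klf13 values lay between 52.7 and 86.2 CPM, and the 48 h log2 fold change was -0.14 ± 0.19 (SE; edgeR, adjusted p = 0.636).

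**Figure D3:**
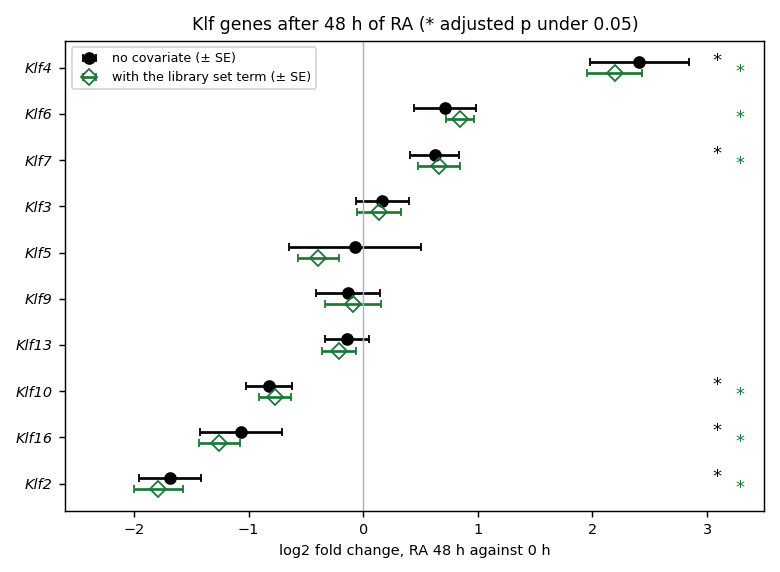
Log2 fold change at 48 h of RA against 0 h (horizontal axis) with its standard error for each Klf gene. Black circles are the fit with no covariate and open green diamonds the fit with the library set term, and asterisks in the same colours mark an adjusted p under 0.05. Klf4 lies at 2.41 and Klf2 at -1.69 with no covariate, and Klf6 carries the green mark alone.

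The earlier times held few Klf calls. At 6 h, 0 of 10 members were called by edgeR and 0 by DESeq2, 0 had an unadjusted p under 0.05, and 1.66% of all tested genes were called. Klf3 had the highest value of the members at 6 h, 0.42 ± 0.23, and Klf9 the lowest, -0.25. At 12 h edgeR and DESeq2 again called 0 of 10, 1 member had an unadjusted p under 0.05, and 2.75% of all genes were called. The library set term brought calls at 12 h for Klf6, higher (0.52; edgeR, adjusted p = 0.0136), and Klf16, lower (-0.81; edgeR, adjusted p = 0.00919), against 12.7% of all genes. The replicate block called Klf6 and Klf16 too, at 0.55 and -0.65 (edgeR, adjusted p = 0.012 and 0.0135), and also Klf5, which gave 3 of 10 against 9.67% of all genes. At 24 h Klf10 was the 1 member called, beside 12.3% of all genes.

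Several members crossed the threshold at 24 h once the library set was in the fit, when 5 of 10 were called against 29% of all genes. Klf4 was then at 1.01 (edgeR, adjusted p = 0.00898), from 1.21 ± 0.43 without the term (edgeR, adjusted p = 0.0976). Klf6 was at 0.54 (edgeR, adjusted p = 0.00474) and Klf16 at -0.77 (edgeR, adjusted p = 0.00572), and Klf5 and Klf10 were called lower. Without the term the values of Klf6 and Klf16 were 0.40 and -0.53 (edgeR, adjusted p = 0.389 and 0.374). The replicate block called 6 members at 24 h, beside 28.3% of all genes, namely Klf4 (0.75; edgeR, adjusted p = 0.034), Klf6 (0.57; edgeR, adjusted p = 0.00403), Klf16 (-0.61; edgeR, adjusted p = 0.00849), Klf5, Klf9 and Klf10. Klf2 was at -0.34 ± 0.25 (edgeR, adjusted p = 0.439) and was called by none of these 3 fits at 24 h.

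**Figure D4:**
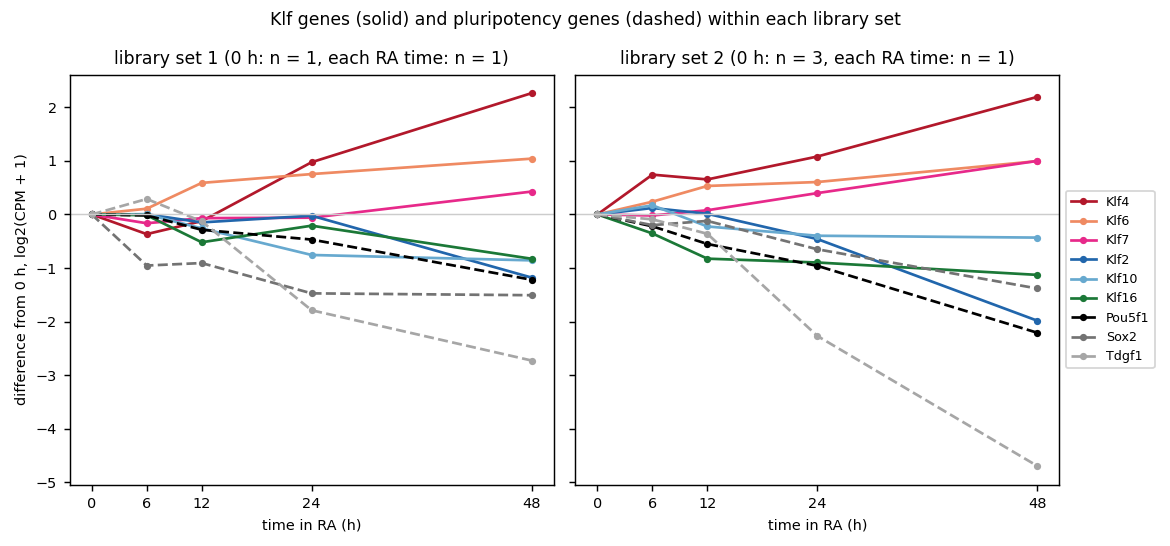
Difference from 0 h in log2(CPM + 1) (vertical axis) against hours of RA (horizontal axis), drawn separately for set 1 (1 library at 0 h) and set 2 (the mean of 3 libraries at 0 h), with 1 library at each RA time. Solid lines are 6 Klf genes and dashed lines Pou5f1, Sox2 and Tdgf1. In both panels Klf4 ends highest, at 2.26 and 2.19, and Klf2 lies near 0 at 12 h and ends at -1.18 and -1.98.

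The step from 24 to 48 h was tested directly. Without a covariate 0 of 10 members were called by edgeR, 2 had an unadjusted p under 0.05, DESeq2 called 1, and 0.706% of all genes were called. Klf2 had a log2 fold change of -1.35 ± 0.29 (edgeR, adjusted p = 0.0735) and Klf4 of 1.20 ± 0.52 (edgeR, adjusted p = 0.336). Both were called with the set term (edgeR, adjusted p = 0.0023 and 0.0167), beside 11% of all genes. The replicate block called Klf2 (-1.35; edgeR, adjusted p = 0.000737), Klf4 (1.21; edgeR, adjusted p = 0.00378) and Klf16 (-0.46; edgeR, adjusted p = 0.0477), beside 16.8% of all genes. Between 6 and 12 h and between 12 and 24 h edgeR and DESeq2 called 0 members and 0 had an unadjusted p under 0.05, beside 0% and 0.0124% of all genes.

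The solvent libraries set RA against time in culture, with 1 library per time, both of set 1, so the fit takes the spread of each DMSO group from the other groups. At 48 h RA against DMSO, Klf2 was the 1 member called, at -1.60 ± 0.34 (SE; edgeR, adjusted p = 0.0207), beside 7.96% of all genes. Its DMSO level was 237 CPM. The call was lost without number 2 of 48 h RA, at -1.17 (edgeR, adjusted p = 0.10). Klf4 stood at 25.3 CPM in DMSO against 129 and 59.6 CPM in RA, a log2 fold change of 1.73 ± 0.68 (SE; edgeR, adjusted p = 0.149). Klf6 was at 83.2 CPM in DMSO, with 1.38 ± 0.42 (SE; edgeR, adjusted p = 0.0688), and Klf16 at 129 CPM, with -1.45 ± 0.47 (SE; edgeR, adjusted p = 0.0832). With the library set term 5 members were called against 24.1% of all genes: Klf4 at 2.02, Klf6 at 1.08, Klf2 at -1.50, Klf10 at -0.66 and Klf16 at -1.16 (edgeR, adjusted p = 0.00242, 0.00119, 0.00159, 0.0247 and 0.00374). Klf7 had a log2 fold change of 0.51 ± 0.31 against DMSO (edgeR, adjusted p = 0.345), and it was not called with the set term.

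At 24 h RA against DMSO, 0 of 10 members were called by edgeR and 0 by DESeq2, 2 had an unadjusted p under 0.05, and 1.89% of all genes were called. The values ran from -1.21 for Klf5 to 0.75 for Klf6. Klf10 and Klf16 were called lower with the set term, at -0.68 and -0.81 (edgeR, adjusted p = 0.04 and 0.0455), beside 10.4% of all genes. DMSO itself was compared with 0 h over both times: 0 of 10 members were called by edgeR and 0 by DESeq2, 0 had an unadjusted p under 0.05, and 0% of all genes were called by edgeR. The values there ran from -0.51 ± 0.28 for Klf6 to 0.81 ± 0.56 for Klf5, and with the library set term these were -0.08 and 0.06. Whether the RA effect of Klf2 or Klf4 differed between 24 and 48 h relative to DMSO gave -1.49 ± 0.50 and 1.08 ± 0.90 (edgeR, adjusted p = 1 for each), and with the set term adjusted p = 0.219 and 0.518 by edgeR.

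**Figure D5:**
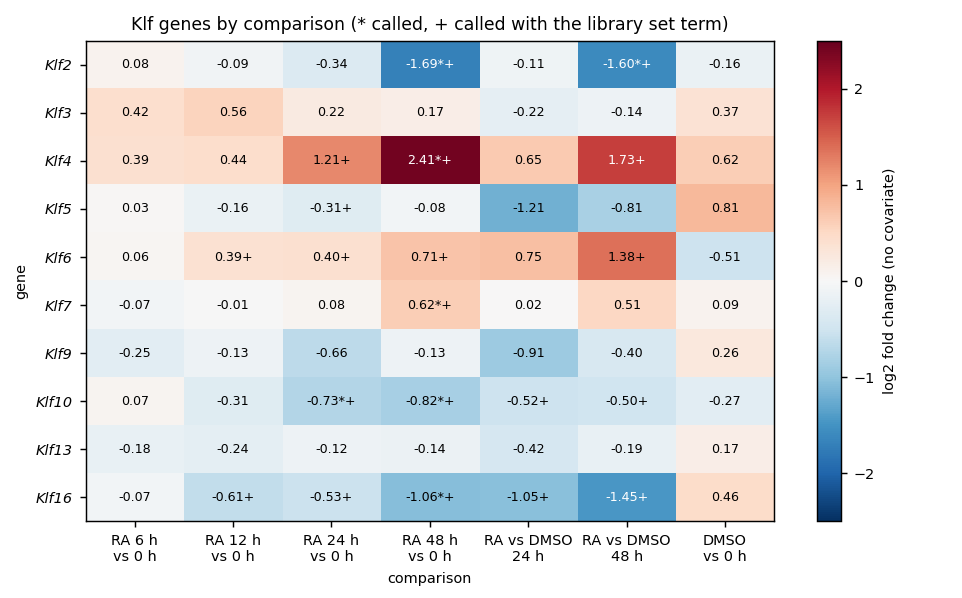
Log2 fold changes with no covariate (colour and printed value) of the 10 Klf genes (vertical axis) in 7 comparisons (horizontal axis). An asterisk marks an adjusted p under 0.05 and a plus sign the same with the library set term. The 48 h column against 0 h holds 5 asterisks, and the 6 h and DMSO columns hold none.

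The members were also set beside genes with the most similar profile over the 14 libraries, for the 5 members, Klf2, Klf4, Klf5, Klf6 and Klf16, whose group means spanned at least 1 on the log2 scale. The measure is Pearson's r of log2(CPM + 1) among 11098 genes, and the libraries share times, treatment and set. Klf2 was most like Rarg, which encodes retinoic acid receptor gamma (r = 0.971), then Mcm5 (0.938) and Diexf (0.937). Klf4 was most like Trim3 (0.979), Klc1 (0.978) and Hk1 (0.963), Klf6 like Tmsb4x, Mtmr10 and Tmem167b (0.952 each), and Klf16 like Mrps24, Samd1 and Nudc (0.974, 0.966 and 0.965). For these 4 members the r of the named genes within the library sets was 0.92 or above. Klf5 was close to Gm15792 and D430001F17Rik (0.955 and 0.948), and within the sets these values dropped to 0.681 and 0.599. Among the members themselves, Klf2 and Klf7 had r = -0.926 and Klf6 and Klf16 r = -0.908, the 2 values farthest from 0 over all pairs. Within the library sets these were -0.946 and -0.861. Klf6 and Klf16 differed between the sets in opposite directions.

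Partners of the family were read from lists chosen by name, and their counts at 48 h stand beside 17.5% of all genes called higher and 12% lower. Of 7 further Klf genes 4 could be tested, and 1, Klf11, was called higher at 48 h (0.80 ± 0.28; edgeR, adjusted p = 0.0499). Its levels were 10.6 to 15.2 CPM at 0 h and 16.0 and 32.2 CPM at 48 h of RA. The 24 h RA libraries read 16.8 and 17.2 CPM. The 48 h DMSO library, at 17.9 CPM, lay above the lower of the 48 h RA libraries. Klf11 is a Sin3A-binding relative of Klf10, which fell. Of 8 tested Sp genes, 1 rose and 2 fell at 48 h, with Sp8 at 1.48 ± 0.36 and Sp2 at -0.71 ± 0.18 (edgeR, adjusted p = 0.0116 and 0.0124). Of 17 cofactors and turnover enzymes of Krüppel-like factors, 1 rose and 4 fell. Ctbp2, the corepressor partner of Klf3, fell by 1.84 on the log2 scale (SE 0.23; edgeR, adjusted p = 0.000311), and Smurf1, a ubiquitin ligase, rose by 0.60 (SE 0.16; edgeR, adjusted p = 0.0193). Of 15 genes of LIF and TGF-beta signalling, which lie upstream of Klf4 and Klf10 in other cells, 7 rose, with Tgfb2 at 2.97 ± 0.64 (edgeR, adjusted p = 0.00638). The median log2 fold changes of the Sp, cofactor and signalling lists were 0.45, -0.23 and 0.63, beside 0.01 for all genes. With the library set term, under which 25.8% of all genes were called higher and 22.9% lower, the numbers higher and lower were 2 and 0 of the 4 Klf genes, 2 and 2 of the Sp genes, 3 and 8 of the cofactors and 9 and 1 of the signalling genes.

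Markers of cell types were also compared between 0 h and 48 h of RA, and their counts too stand beside 17.5% higher and 12% lower of all genes. The summed level of 16 primitive and parietal endoderm markers was 920 to 1430 CPM at 0 h and 8160 to 11600 CPM at 48 h of RA, and 15 of the 16 rose. Of 10 listed visceral endoderm markers 7 were tested, and 6 of these rose. A gene could enter the tests through its 48 h counts alone, so counts over tested markers partly follow from the filter. Ttr, among those that rose, had 0 counts at 6, 12 and 24 h of RA and in both DMSO libraries. The list summed to 2.09 to 8.54 CPM at 0 h, with Afp and Apoa1 at 0 counts, and to 192 to 214 CPM at 48 h. The 24 pluripotency markers summed to 7190 to 8590 CPM at 0 h and to 3430 to 4700 CPM at 48 h. Of 5 tested neural markers 2 fell, with sums of 225 to 273 CPM at 0 h and 199 to 211 CPM at 48 h. Of 7 listed fibroblast markers 3 were tested, under the same filter, and 2 rose and 1 fell. The fibroblast list summed to 11.7 to 28.1 CPM at 0 h and to 4.65 to 7.58 CPM at 48 h. Of 7 mesoderm markers 2, Eomes and Tbx6, rose, with sums of 23.2 to 43.9 CPM at 0 h and 68.7 to 72.5 CPM at 48 h. The part of these cell-type changes in the Klf levels was not tested.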

How the data were processed

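Gene-level read counts of 14 mRNA libraries were analysed as deposited by the authors. Per the labels' protocols, TRIzol RNA went through the TruSeq V2 kit and single-end sequencing of 50 or 72 bases on 2 instruments, and the labels do not say which library had which. The submitters' processing notes name TopHat2 2.0.7, HTSeq and DESeq, with the build mm9; the strand setting is not given in the sources used here, so a gene and an antisense partner cannot be told apart. The 5 entries that name no gene held 72.52% to 76.78% of all deposited counts and were left out. The counts of reads in no annotated gene, used for the library sets, were among them.

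CPM used the total over Ensembl genes. Tests used edgeR 4.0.16 in R 4.3.3: the quasi-likelihood F-test on all 14 libraries, 1 term per group, TMM scaling, filterByExpr (16155 genes kept), and Benjamini-Hochberg adjustment with a call under 0.05. DESeq2 1.42.0 was an alternative. SE values are approximate. The code was tested on simulated data. Deviations of same-numbered libraries from their group means correlated between groups at r = 0.52 to 0.839, median 0.69, over 14 values. Libraries of a pair mirror each other, so RA groups count once. The main tests did not use the replicate number. It entered only as the block of an alternative fit, where number and library set coincide. All 10 members were described. Other genes were named as 8 fixed pluripotency and endoderm genes, the largest called increase and decrease of each further list at 48 h, and the 3 genes most like a member (for Klf5, 1 of the 3 is not reported here). Dppa2, Tbx3, Lefty1, Eomes, Tbx6, Afp and Apoa1 were named after their values were seen. The members and lists were chosen with earlier results of these data known. Replicates differed by more than counting noise in every pair compared.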

Additional observations from a re-analysis of the deposited data

Results flagged for a closer look

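In the 4 libraries at 0 h, Nanog in number 2 stood at 418 CPM, far from the other 3, which lay between 264 and 279 CPM. Chance takes about 1 in 20 groups of 4 past the limit used for such a gap. None of the 10 Klf genes had a 0 h library this far from the other 3.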

How the results depend on the processing

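The 7 called changes of single Klf genes were recomputed under 87 alternatives. They kept their call in 63 and lost it in 24, with 0 reversals. Of 414 alternatives to the 36 values that were not called, 364 stayed uncalled in the same direction, 42 became called and 8 changed sign, and the cause was not tested. The sign changes came from leaving out 1 library: the log2 fold change of Klf5 then ran from -0.78 to 0.34 at 12 h, from -0.91 to 0.19 at 24 h and from -1.01 to 0.54 at 48 h, that of Klf13 at 48 h from -0.37 to 0.072, and that of Klf16 from 24 to 48 h from -0.96 to 0.095. The values of Klf5 above 0 were those without number 1 of 0 h (0.34, 0.19 and 0.42) or without number 2 of the RA time (0.27, 0.13 and 0.54), that of Klf13 without number 2 of 48 h RA and that of Klf16 without number 1 of 24 h RA.

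With the library set term the members called rose from 0 to 2 at 12 h, from 1 to 5 at 24 h, from 0 to 2 between 24 and 48 h, from 0 to 2 against DMSO at 24 h and from 1 to 5 against DMSO at 48 h. With the replicate block they numbered 3 at 12 h, 6 at 24 h and 3 between 24 and 48 h. The block cannot be told apart from the library set and took in no DMSO library. The share of all genes called was counted for the main, set term and block fits only, not for the fits that follow. DESeq2 called 1 member between 24 and 48 h and 3 against DMSO at 48 h, and a fit without a filter on low counts called 0 at 24 h and 1 between 24 and 48 h. A fit of the compared groups alone called 0 at 24 h and 3 against DMSO at 48 h. A fit with the set term and without number 1 of 24 h RA, added after seeing the data, called 4 at 24 h, 1 between 24 and 48 h and 1 against DMSO at 24 h. Leaving out 1 library at a time gave 0 to 2 members at 24 h, 3 to 3 at 48 h and 0 to 1 against DMSO at 48 h, and 0 to 0 in the other comparisons; where this left a group with 1 library, its spread was taken from the other groups.

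For the pluripotency list at 6, 12 and 24 h, 2, 6 and 14 genes were called lower with the set term. The replicate block called 4, 8 and 15 of them lower. Both fits also called more of all genes in either direction at 12 and 24 h, as given above. Their shares of all genes called lower at these times are not given. At 6 h DESeq2 called 2 of the list lower and the fit without a filter 1. Leaving out 1 library at a time gave 0 to 1, 1 to 4, 4 to 9 and 8 to 19 at the 4 times. TMM scaling moved 2 of 50 group levels by more than the spread of replicates, those of Klf3 and Klf9 at 48 h of RA, to 59.4 and 103 CPM. With 2 libraries at each RA time and 1 at each DMSO time, the number of libraries limits what can be called.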
